A study of Homo sapiens with 36 samples.

Results

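The epidermal growth factor (EGF) receptor, its ligands and the feedback inhibitors of the mitogen-activated protein kinases (MAPK) were followed as 10 genes: EGFR, HBEGF, AREG, EREG, TGFA, DUSP1, DUSP4, DUSP5, DUSP6 and SPRY4. Members were the probe sets whose platform annotation gave one of these symbols alone, and where a gene had several, the brightest on average was used. This gave a probe set for 9 of the 10 genes and a tested value for 8, out of 11092 genes tested. No probe set carried AREG as its only symbol in the table used, so amphiregulin was not analysed here. Probe sets annotated with several genes had been left out beforehand. The 3 DUSP4 probe sets stayed below the detection level of 4 (log2) on every array, with group means of 2.55 to 2.59 for the brightest, and DUSP4 was not tested.

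The cells were HK-2, a human line derived from the epithelium of the renal proximal tubule and immortalized. At about 90% confluency they were treated with CdCl, Di or Kbr (the compound names are given only in this form), and the whole transcriptome was read on 36 single-colour Affymetrix arrays. In the first set of 18 arrays, cells received CdCl, Di or their shared vehicle for 12 or 48 h. In the second set of 18 arrays, cells received Kbr labelled hd or ld, taken here as a high and a low dose, or vehicle, for 24 or 48 h. Every one of the 12 groups held 3 biological replicates of the same line, so p-values measure the spread between cultures of 1 line. The labels give neither concentrations nor the vehicle. All cultures, controls included, grew in medium with 10 ng/ml recombinant EGF, insulin, transferrin, selenite and hydrocortisone, so EGF was supplied to every group. How much of it remained at harvest is not given.

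EGFR is a receptor tyrosine kinase at the cell surface. Its ligands, heparin-binding EGF-like growth factor (HBEGF), epiregulin (EREG) and transforming growth factor alpha (TGFA), are made as membrane proteins and released by proteases. The receptor signals through RAS, RAF and MEK to the kinase ERK, and ERK induces genes that switch it off again. Among these are the dual-specificity phosphatases, of which DUSP5 acts on ERK in the nucleus and DUSP6 on ERK in the cytoplasm, and the Sprouty proteins such as SPRY4. DUSP1 is a nuclear phosphatase that also acts on the stress kinases p38 and JNK. In the proximal tubule, EGFR signalling is known for its part in repair after injury.

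The promoters of HBEGF, DUSP1 and DUSP6 are shown because these genes passed the test in at least 4 of the 8 comparisons with control and had the largest changes among members with a sequence, and because DUSP6 moved opposite to the others. Each is the 250 bases before the RefSeq start on GRCh38.p14, from the minus strand. HBEGF lies at chr5:140346604-140346853, DUSP1 at chr5:172771196-172771445 and DUSP6 at chr12:89352502-89352751. Capitals mark matches to the searched motifs.
HBEGF: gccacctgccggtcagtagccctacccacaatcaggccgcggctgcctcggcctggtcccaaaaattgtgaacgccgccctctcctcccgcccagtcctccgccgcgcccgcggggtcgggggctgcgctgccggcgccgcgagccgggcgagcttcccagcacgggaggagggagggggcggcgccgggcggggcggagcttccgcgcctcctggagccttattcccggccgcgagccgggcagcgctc
DUSP1: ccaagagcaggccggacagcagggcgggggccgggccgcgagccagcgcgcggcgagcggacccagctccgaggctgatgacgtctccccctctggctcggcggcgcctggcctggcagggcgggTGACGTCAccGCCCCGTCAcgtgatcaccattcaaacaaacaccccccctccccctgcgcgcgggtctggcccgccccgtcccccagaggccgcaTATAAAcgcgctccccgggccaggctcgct
DUSP6: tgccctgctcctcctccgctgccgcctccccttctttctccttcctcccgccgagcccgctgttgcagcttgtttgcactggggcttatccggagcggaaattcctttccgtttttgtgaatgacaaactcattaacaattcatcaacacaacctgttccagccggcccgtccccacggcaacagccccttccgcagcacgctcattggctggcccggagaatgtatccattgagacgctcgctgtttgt
The motifs were searched on both strands: the cAMP response element TGACGTCA, the AP-1 site TGANTCA, the antioxidant response element core TGACNNNGC, the ETS site CCGGAAG and the TATA box TATAAA. DUSP1 held the cAMP response element at position -125 relative to the start, the antioxidant core on the opposite strand at -115, and a TATA box at -30, with no overlap between them. Among 35116 promoter windows of the same length, 1.65% held the cAMP response element, 10.9% the antioxidant core and 10.7% the TATA box. HBEGF and DUSP6 held none of the 5 motifs in this window, and neither did the windows before both TGFA starts. The EREG window held a TATA box at -32, and the SPRY4 window an antioxidant core on the opposite strand at -228. The window before the second EGFR start held AP-1 sites at -232 and -136 and TATA boxes at -146 and -36, and that before the first held none of the motifs. The AREG window held a cAMP response element at -65 and a TATA box at -29. The AP-1 site stood in 6.57% of all windows and the ETS site in 8.52%.

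The arrays gave log2 expression, and a difference of 1 is a doubling. A gene rose or fell where the Benjamini-Hochberg adjusted p of the limma fit over all 11092 genes was below 0.05. Of the 64 tests of 8 members in 8 comparisons with control, 36 passed. Because each treatment changed many genes, the counts are read against the share of all genes that passed. After CdCl, 4 of 8 members passed at 12 h against 43.9% of all genes, and 5 of 8 at 48 h against 42.7%. After Di, 0 of 8 passed at 12 h against 6.27%, with limma's unadjusted p below 0.05 for 2 of the 8, and 7 of 8 at 48 h against 43.0%. After high Kbr, 5 of 8 passed at 24 h against 40.7% and 7 of 8 at 48 h against 61.8%. After low Kbr, 2 of 8 passed at 24 h against 15.2% and 6 of 8 at 48 h against 47.0%. The median size of the members' log2 differences was 1.31 for Di at 48 h, where it was 0.32 over all genes. For high Kbr at 48 h it was 0.90 for the members and 0.51 over all genes. The contrast was smaller for Di at 12 h (0.28 and 0.17) and low Kbr at 24 h (0.25 and 0.19). For CdCl the medians were 0.80 and 0.33 at 12 h and 0.85 and 0.32 at 48 h. High Kbr at 24 h had 0.56 and 0.30, and low Kbr at 48 h 0.58 and 0.35. Both treatments of a set are compared with the same control arrays at a time, so their differences are not independent of each other. Of all called genes, 30.5% were higher with CdCl at 12 h, 26.6% with Di at 12 h and 37.9% with high Kbr at 24 h. After centring each array on its median these shares were 42.0%, 49.6% and 48.9%.

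The cells carried epithelial transcripts and few of the transporters that define the proximal tubule. All 5 epithelial markers (CDH1, KRT8, KRT18, KRT19, EPCAM) were detected, with a summed log2 level of 51.3 to 57.5 over the groups. Of 14 proximal tubule markers, 4 were detected (SLC3A1, CDH6, SLC4A4, PAX8; summed level 34.1 to 45.1), and LRP2, CUBN, SLC34A1 and AQP1 were not. Of 6 fibroblast markers 3 were detected (COL1A1, DCN, LUM; 22.7 to 30.7) and of 6 distal nephron markers 1. None of 5 endothelial and 5 leukocyte markers was detected. The log2 difference between 3′ and 5′ probe sets of ACTB, a sign of RNA integrity, averaged 1.40 to 1.84 in the groups of the first set and 0.87 to 1.06 in the Kbr set. Its largest gap from control was with Di at 12 h (1.40 against 1.84), where no member passed. The part of these values in the results was not tested.

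EGFR mRNA rose after Di at 48 h and fell after high Kbr, in both cases by less than 2-fold. The gene lies at chr7:55019017-55211628 (GRCh38.p14). With Di at 48 h the 3 arrays read 12.28, 12.25 and 12.19, and vehicle read 11.64, 11.69 and 11.68. The groups did not overlap, and the difference was 0.57 ± 0.14 (SE; 1.48-fold, adjusted p = 0.00128, n = 3). With high Kbr at 24 h EGFR read 10.74, 10.78 and 11.00, against 11.47, 11.46 and 11.42 in vehicle. All treated arrays lay below all controls there, with a difference of -0.60 ± 0.14 (adjusted p = 9.04e-04). At 48 h high Kbr read 11.41, 11.28 and 10.82 and vehicle 11.66, 11.54 and 11.44, a difference of -0.38 ± 0.14 (adjusted p = 0.0180). That call was lost without replicate 3 of high Kbr (-0.21, adjusted p = 0.197), without replicate 1 of the control (-0.32, 0.0761), with arrays centred on their median (-0.32, 0.0590), with the mean of probe sets (-0.25, 0.113) and with the set fitted alone (0.0536). With the replicate number as a block in the fit the high Kbr call at 48 h stood (adjusted p = 0.0129). With CdCl at 48 h EGFR read 11.85, 12.09 and 11.94, above every control array. The difference of 0.29 did not pass in the fit of all arrays (adjusted p = 0.0952) and passed with the first set fitted alone (0.0334).

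EGFR probe sets disagreed at 12 h. Besides the probe set used, 4 others were above the detection level. A pair of them, of a type that can bind related transcripts (suffix x_at), was higher by 1.75 and 0.84 after CdCl at 12 h and by 1.41 and 0.71 after Di at 12 h, and all of these passed in a fit over probe sets. The probe set used differed by 0.05 and -0.10 in the same comparisons and did not pass. With the mean of probe sets EGFR passed after CdCl at 12 h (0.58, adjusted p = 0.00113). At 48 h after Di all 5 EGFR probe sets were higher, by 0.49 to 1.15, and all passed. At 24 h after high Kbr all 5 were lower (-0.47 to -0.63), and 4 passed. At 48 h after high Kbr the 4 others were lower by less (-0.17 to -0.26), and none of them passed (adjusted p 0.0820 to 0.538). A further EGFR probe set was higher by 0.93 after CdCl at 48 h and passed in the fit over probe sets (adjusted p = 6.18e-06). The remaining ones differed there by 0.24, 0.23 and -0.16 and did not pass.

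HBEGF, whose product binds both EGFR and ERBB4, rose in 6 of the 8 comparisons with control and fell in none. It lies at chr5:140332843-140346603. After CdCl at 12 h HBEGF read 9.02, 9.47 and 9.77, against 7.05, 7.40 and 7.40 in vehicle, which was 4.41-fold higher (2.14 ± 0.29, adjusted p = 1.37e-06). These CdCl arrays were the highest of all 36. After CdCl at 48 h it read 7.72, 7.55 and 7.77 against 6.28, 6.37 and 6.47 (1.30 ± 0.29, adjusted p = 6.60e-04). After Di it read 7.90, 8.13 and 7.80 at 12 h and 7.73, 7.85 and 7.65 at 48 h. Both Di groups lay wholly above their controls, but the 12 h difference of 0.66 did not pass (adjusted p = 0.178) while the 48 h difference of 1.37 did (adjusted p = 3.72e-04).

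In the Kbr set HBEGF rose most at 48 h. High Kbr then read 8.45, 8.43 and 8.37, low Kbr 7.77, 7.82 and 7.91, and vehicle 5.29, 5.44 and 6.33. The rise was 6.64-fold for the high dose (2.73 ± 0.29, adjusted p = 5.98e-09) and 4.43-fold for the low dose (2.15, adjusted p = 1.12e-06), with no overlap with vehicle. At 24 h vehicle read 6.51, 6.61 and 7.73, low Kbr 6.88, 6.74 and 8.04, and high Kbr 7.68, 7.34 and 8.20, in the order of the replicate numbers. Replicate 3 was the highest in each of these 3 groups. The high dose passed at 24 h with overlapping groups (0.79 ± 0.29, adjusted p = 0.0321). That call was lost with the Kbr set fitted alone (adjusted p = 0.113), without a filter (0.0655) and without any one of 4 of its 6 arrays, namely control replicates 1 and 2 (0.57 and 0.62) and high Kbr replicates 1 and 3 (0.82 and 0.56), with adjusted p from 0.0558 to 0.184. With the replicate number as a block in the fit the call stood (adjusted p = 0.00294). A second HBEGF probe set rose in the same 6 comparisons, by 0.85 to 2.70.

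EREG, a ligand of EGFR and ERBB4, was the most variable member. It lies at chr4:74365145-74388749. After CdCl at 12 h EREG read 9.97, 9.96 and 10.34, against 8.78, 8.51 and 8.43 in vehicle, a rise of 1.52 ± 0.56 (2.86-fold, adjusted p = 0.0297) without overlap. The SE of 0.56 came from all 36 arrays, and the group SDs reached 1.55 in the Kbr set. With only the first set fitted the adjusted p was 9.57e-06. In the fit of all arrays the call was lost without any one of 5 of its 6 arrays (differences 1.39 to 1.58, adjusted p 0.0504 to 0.0904) and without a filter (0.0638). Control replicate 1 was the array whose omission kept it.

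At 48 h EREG in vehicle of the first set read 10.03, 10.30 and 9.87, already above the 12 h control. CdCl at 48 h read 9.83, 9.67 and 9.79, a difference of -0.30 that did not pass (adjusted p = 0.701). Di at 48 h read 10.56, 10.94 and 11.14, above every control array. The difference of 0.81 did not pass in the fit of all arrays (adjusted p = 0.258) and passed with the first set fitted alone (0.00184).

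After Kbr for 48 h, EREG was high in replicates 1 and 2 and near vehicle in replicate 3. Low Kbr read 11.52, 10.73 and 8.52, high Kbr 10.97, 9.92 and 8.20, and vehicle 8.68, 7.70 and 8.08, in the order of the replicate numbers. The means were higher by 2.11 (low, adjusted p = 0.00300) and 1.54 (high, adjusted p = 0.0186), with groups that overlapped. Without replicate 3 of the treated group EREG was higher by 2.97 (adjusted p = 3.85e-05) after low Kbr and by 2.30 (7.38e-04) after high Kbr. The high-dose call was lost without replicate 1 of high Kbr (0.91, adjusted p = 0.184), replicate 2 of high Kbr (1.43, 0.0565) or replicate 2 of the control (1.32, 0.0756), and with the set fitted alone (0.0874). It stood with the replicate number as a block (adjusted p = 0.0240). At 24 h replicate 3 was instead the highest array of each group, at 9.75 in vehicle, 9.91 in low Kbr and 9.86 in high Kbr, while the others lay between 8.46 and 8.81. EREG did not pass at 24 h at either dose (differences 0.23 and 0.20).

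**Figure D1:**
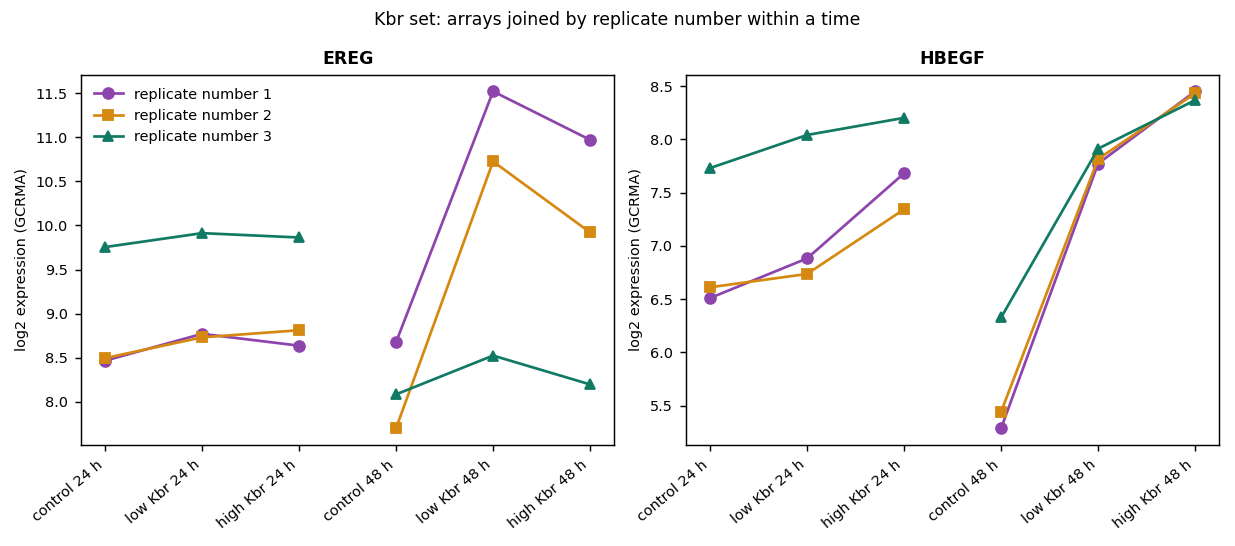
Log2 expression of EREG (left) and HBEGF (right) on the 18 arrays of the Kbr set, with arrays of the same replicate number joined within a time. EREG in replicate 3 was highest at 24 h and stayed at 8.20 and 8.52 under Kbr at 48 h, where replicates 1 and 2 reached 9.92 to 11.52, and HBEGF rose at 48 h in all 3 numbers.

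TGFA rose with CdCl and Di at 48 h and fell with Kbr at both doses and times. It lies at chr2:70447284-70553826. In the first set vehicle read 9.63, 9.67 and 9.64 at 12 h and 8.74, 8.58 and 8.84 at 48 h. Di at 48 h read 10.02, 9.96 and 9.97, which was 2.40-fold above its control (1.26 ± 0.11, adjusted p = 4.81e-10). CdCl at 48 h read 9.47, 9.25 and 9.31 (0.62 ± 0.11, adjusted p = 6.68e-05), so that neither treated group overlapped the 48 h control. At 12 h neither treatment passed (differences 0.11 and -0.06).

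In the Kbr set vehicle TGFA read 9.60, 9.30 and 9.52 at 24 h and 9.32, 9.14 and 9.35 at 48 h. High Kbr read 8.86, 8.58 and 8.93 at 24 h (-0.69, adjusted p = 2.62e-05) and 8.36, 8.25 and 8.67 at 48 h (-0.84, adjusted p = 3.27e-07). Low Kbr read 9.17, 8.81 and 9.17 at 24 h (-0.42, adjusted p = 0.0121) and 8.62, 8.54 and 8.70 at 48 h (-0.65, adjusted p = 3.60e-05). All 4 Kbr groups lay below their controls without overlap. The low-dose call at 24 h was lost without control replicate 1 (-0.36, adjusted p = 0.0809) or low Kbr replicate 2 (-0.31, 0.101) and with the set fitted alone (0.0695). With the replicate number as a block that call stood (adjusted p = 2.67e-04). Both other TGFA probe sets were dim, with means of 3.98 and 3.91 near the detection level. They also rose after Di at 48 h, by 1.14 and 2.29, and passed in no other comparison with control. With the mean of the 3 probe sets the 4 Kbr differences were -0.35 to -0.48 with adjusted p from 0.0686 to 0.286, and CdCl at 48 h was 0.50 (0.0573).

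**Figure D2:**
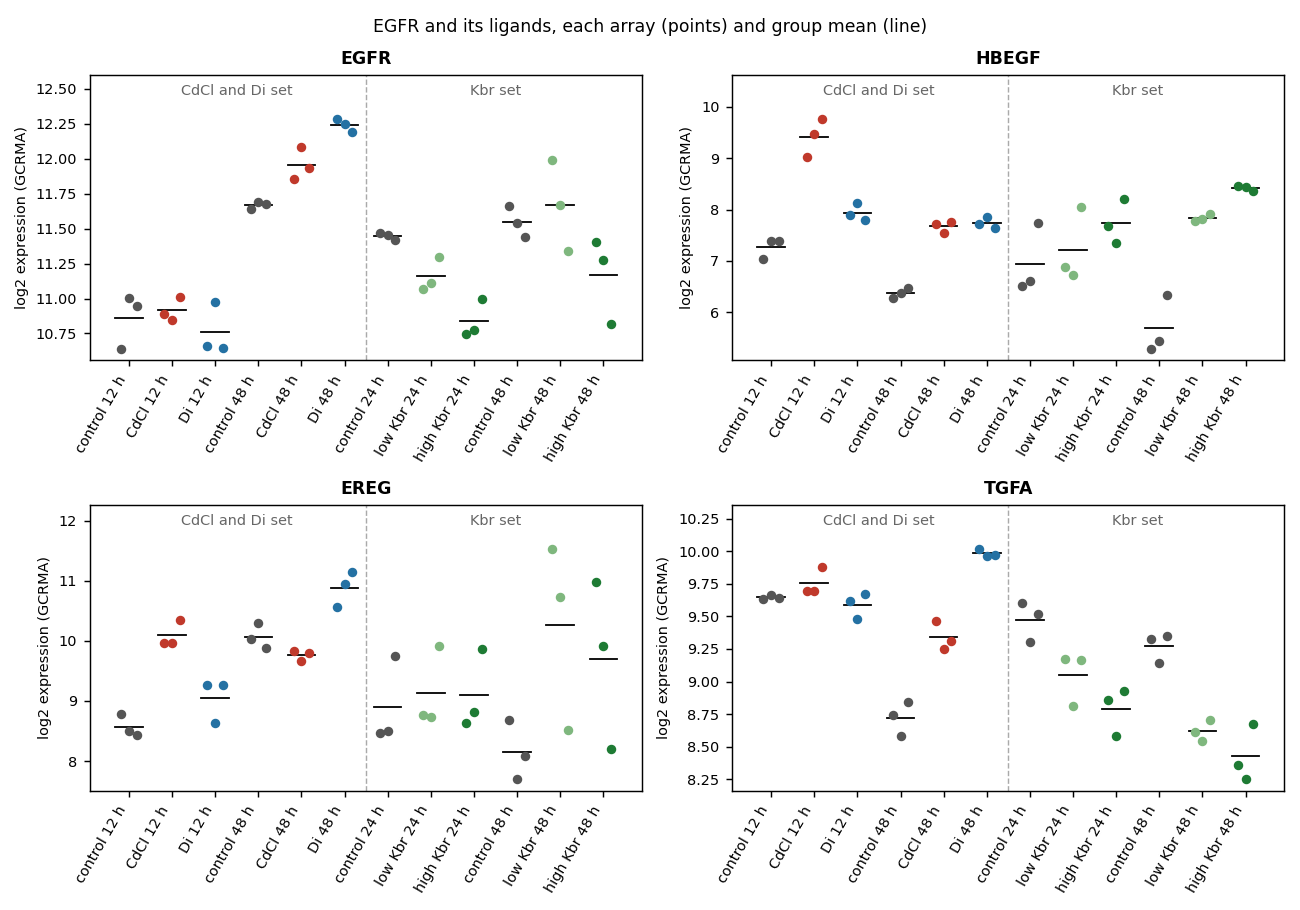
Log2 expression of EGFR, HBEGF, EREG and TGFA by group, with 1 point for each of 3 arrays and a line at the group mean; the dashed line divides the sets. HBEGF lay above vehicle in all 4 groups treated for 48 h, while TGFA at 48 h lay above its control with CdCl and Di (9.25 to 10.02) and below it with Kbr (8.25 to 8.70).

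DUSP5, the nuclear ERK phosphatase, rose in 7 of the 8 comparisons with control, and Di at 12 h was the exception (0.20, adjusted p = 0.507). The gene lies at chr10:110497907-110511533. Vehicle in the first set read 8.78, 8.83 and 8.95 at 12 h and 7.94, 7.95 and 7.98 at 48 h. Di at 48 h read 11.74, 11.51 and 11.44, which was 12.2-fold above its control (3.60 ± 0.16, adjusted p = 2.94e-16). CdCl read 10.20, 10.23 and 10.39 at 12 h (1.42, adjusted p = 9.08e-08) and 10.05, 10.11 and 9.85 at 48 h (2.04, adjusted p = 6.78e-11). All these treated arrays lay above all matched controls, whereas Di at 12 h, at 9.07, 9.19 and 8.91, overlapped its control.

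Kbr raised DUSP5 at both doses and both times. Vehicle read 9.66, 9.22 and 9.85 at 24 h and 9.15, 8.78 and 9.62 at 48 h. High Kbr read 10.86, 10.50 and 10.79 at 24 h (1.14, adjusted p = 4.03e-06) and 11.98, 11.85 and 11.64 at 48 h (2.64, adjusted p = 2.07e-13). Low Kbr read 10.45, 10.28 and 10.66 at 24 h (0.89, adjusted p = 6.42e-04) and 11.57, 11.18 and 11.28 at 48 h (2.16, adjusted p = 1.25e-10). None of these 4 groups overlapped its control. DUSP5 was read from its only probe set.

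DUSP6, the cytoplasmic ERK phosphatase, fell in 5 of the 8 comparisons and rose in none. It lies at chr12:89347235-89352501. Vehicle in the first set read 12.99, 13.03 and 12.97 at 12 h and 11.98, 12.26 and 12.01 at 48 h. Di at 48 h read 10.06, 10.00 and 10.21, which was 3.97-fold below its control (-1.99 ± 0.13, adjusted p = 3.87e-13). CdCl at 48 h read 11.09, 10.91 and 10.99 (-1.09, adjusted p = 6.95e-08). At 12 h CdCl read 12.89, 12.88 and 12.77 and Di 12.83, 12.46 and 12.86. These 12 h arrays all lay below the controls, but the differences of -0.15 and -0.28 did not pass (adjusted p = 0.360 and 0.188).

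In the Kbr set DUSP6 in vehicle read 12.95, 12.74 and 12.42 at 24 h and 13.28, 13.19 and 12.99 at 48 h. High Kbr read 12.15, 12.35 and 12.05 at 24 h (-0.52, adjusted p = 0.00159) and 12.20, 12.47 and 12.37 at 48 h (-0.81, adjusted p = 3.14e-06). Low Kbr read 12.56, 12.83 and 12.81 at 48 h (-0.42, adjusted p = 0.00750) and did not pass at 24 h (-0.15). The 3 groups that passed lay below their controls without overlap. The low-dose call was lost without low Kbr replicate 1 (-0.33, adjusted p = 0.0558). It stood with the replicate number as a block (adjusted p = 0.00455). Both other DUSP6 probe sets fell with CdCl and Di at 48 h and with high Kbr at 48 h (-0.74 to -2.22). In each of the other called comparisons with control 1 of them did not pass, at -0.29 with high Kbr at 24 h (0.141) and at -0.41 with low Kbr at 48 h (0.0568).

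DUSP1 rose in 5 of the 8 comparisons, and its 3 highest arrays were those of CdCl at 12 h. The gene lies at chr5:172768096-172771195. After CdCl at 12 h DUSP1 read 12.38, 12.54 and 12.78 against 10.51, 10.47 and 10.67 in vehicle (2.01 ± 0.15, 4.04-fold, adjusted p = 2.21e-11). At 48 h CdCl read 11.39, 11.48 and 11.52, Di 11.71, 11.94 and 11.72, and vehicle 9.80, 9.72 and 9.98. The rises were 1.63 (adjusted p = 8.91e-10) and 1.96 (adjusted p = 1.81e-11), without overlap. Di at 12 h read 10.92, 10.71 and 10.84, above every control array, and did not pass (0.28, adjusted p = 0.287). A dimmer DUSP1 probe set, also with suffix x_at, was higher by 1.04 in that comparison and passed in a fit over probe sets.

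With Kbr, DUSP1 rose at 48 h and did not pass at 24 h, where the differences were -0.19 for the high and -0.18 for the low dose. At 48 h high Kbr read 11.60, 11.94 and 11.45, low Kbr 11.04, 11.35 and 11.30, and vehicle 10.39, 10.69 and 11.06. The high dose did not overlap vehicle (0.95, adjusted p = 3.63e-06), and the low dose did (0.51, adjusted p = 0.00625). The low-dose call was lost without control replicate 1 (0.35, adjusted p = 0.0750). It stood with the replicate number as a block (adjusted p = 0.00107).

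SPRY4, an inhibitor of signalling from receptor tyrosine kinases to ERK, was dim, with group means of 4.36 to 5.95. Whether its log2 differences were compressed near the detection level was not tested. It passed in 1 of 8 comparisons, Di at 48 h, where it read 6.33, 5.67 and 5.84 against 4.97, 4.93 and 4.42 in vehicle (1.17 ± 0.21, 2.26-fold, adjusted p = 3.05e-05). CdCl at 48 h read 4.66, 4.21 and 4.22, and its difference of -0.41 did not pass (adjusted p = 0.111); it passed without control 48 h replicate 3 (-0.59, 0.0371). With Kbr the 4 differences from control were 0.03 to 0.30, and none passed, although high Kbr at 48 h did after quantile normalization (0.50, adjusted p = 0.0321).

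**Figure D3:**
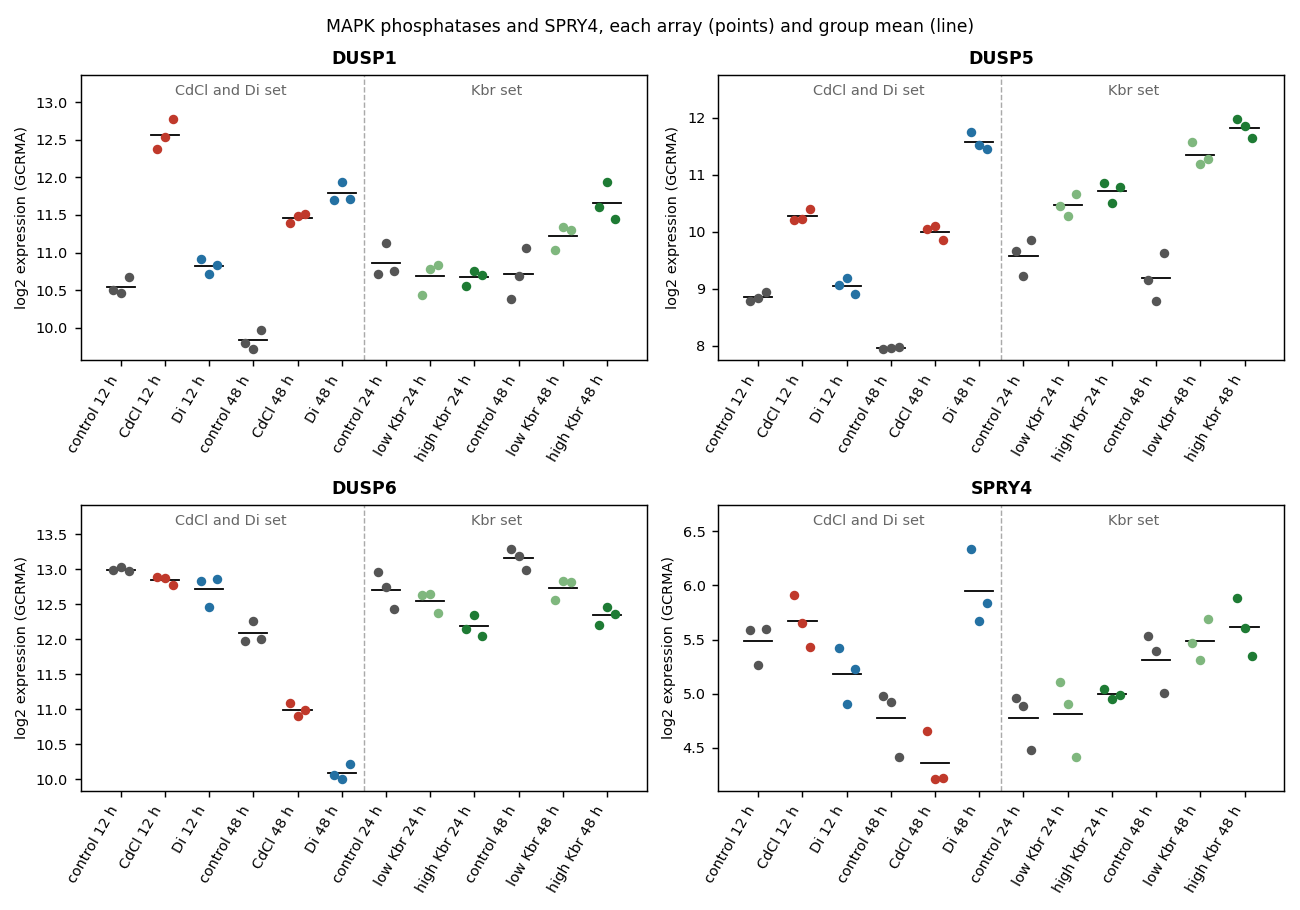
Log2 expression of DUSP1, DUSP5, DUSP6 and SPRY4 by group, with 1 point for each of 3 arrays and a line at the group mean; the dashed line divides the sets. At 48 h DUSP5 lay above vehicle and DUSP6 below it in all 4 treated groups, and Di at 48 h had the lowest DUSP6 (10.00 to 10.21).

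In the order of the 12 group means, few neighbours were separated by their arrays. For HBEGF, 7 of 11 neighbouring pairs overlapped, and CdCl at 12 h and then high Kbr at 48 h stood clear at the top. For DUSP6, 8 of 11 overlapped, and CdCl and then Di at 48 h stood clear at the bottom. For DUSP5, 8 of 11 overlapped, and the 3 highest groups were high Kbr, Di and low Kbr at 48 h, which overlapped in turn. For EGFR 7, TGFA 9, DUSP1 8, EREG 10 and SPRY4 all 11 neighbouring pairs overlapped. These orders mix levels of both sets, whose 48 h vehicle cultures differed, in DUSP5 by 1.23 and in DUSP6 by 1.07. Against its own control, DUSP5 at 48 h rose more with Di (3.60) than with high Kbr (2.64).

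**Figure D4:**
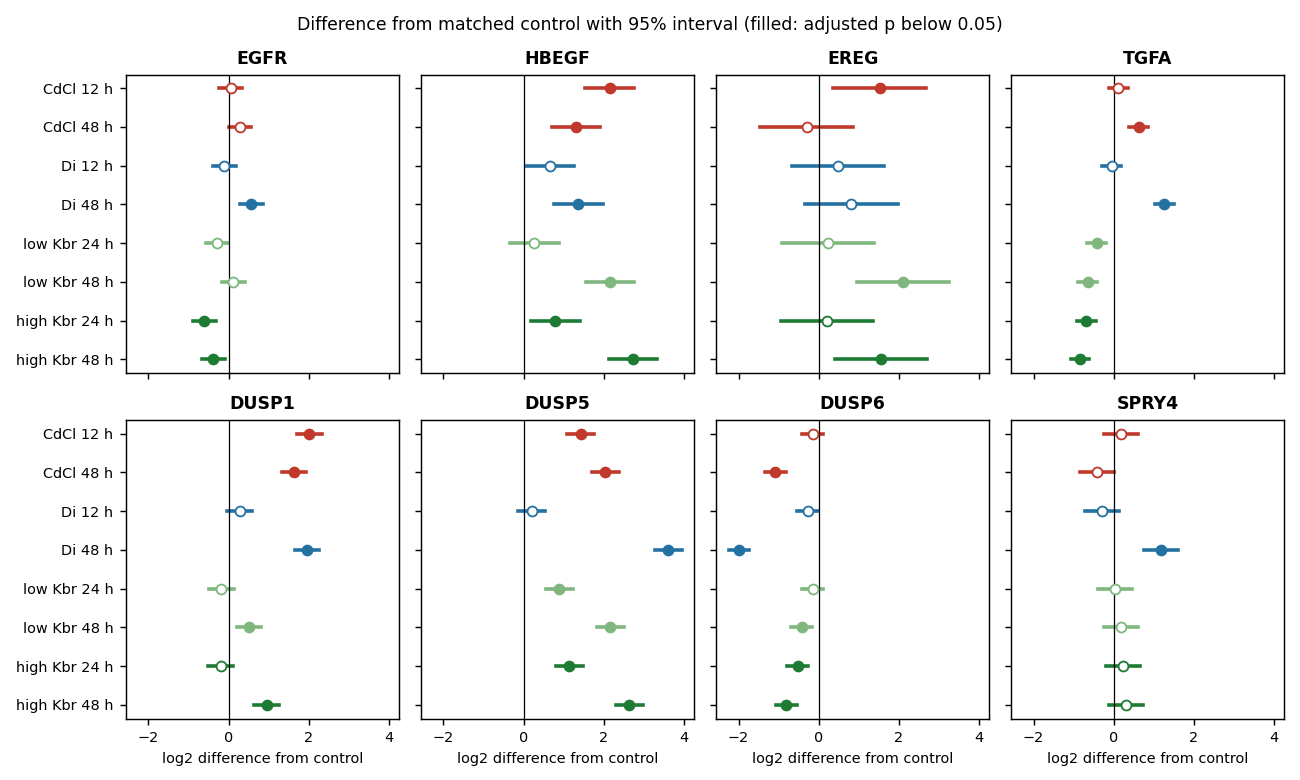
Log2 difference from the matched control with its 95% interval for 8 genes in 8 comparisons, with filled points where the adjusted p was below 0.05. HBEGF, DUSP1 and DUSP5 lie to the right and DUSP6 to the left at 48 h with each compound, and TGFA lies to the right with CdCl and Di and to the left with Kbr.

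CdCl and Di, which share times and controls, were also compared directly. At 12 h 3 of 8 members passed, against 35.6% of all genes: HBEGF was higher with CdCl than with Di by 1.48, DUSP1 by 1.74 and DUSP5 by 1.22. SPRY4 joined them without Di replicate 1 (0.60, adjusted p = 0.0445). EREG differed by 1.03 and did not pass (0.158), but did with the first set fitted alone (3.84e-04). At 48 h 4 of 8 passed, against 37.6% of all genes. The difference, CdCl minus Di, was -1.57 for DUSP5 (adjusted p = 1.98e-08), -1.58 for SPRY4 (6.99e-07), -0.64 for TGFA (6.14e-05) and 0.90 for DUSP6 (2.38e-06). HBEGF at 48 h differed by -0.06 with a 95% interval of -0.67 to 0.54. EREG at 48 h differed by -1.12 and did not pass (adjusted p = 0.121), but did with the first set fitted alone (1.81e-04).

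The effects at the later time were set against those at the earlier one as a difference of differences. For Di 6 of 8 members passed, against 29.0% of all genes: DUSP5 by 3.40, DUSP1 by 1.68, SPRY4 by 1.48, TGFA by 1.32, EGFR by 0.67 and DUSP6 by -1.71. With the mean of probe sets EGFR did not pass (0.41, adjusted p = 0.115) and HBEGF did (1.16, 0.0285), and the x_at pair of EGFR probe sets gave -0.69 (0.173) and 0.19 (0.716) without passing. For CdCl 2 of 8 passed, against 24.2%: DUSP6 by -0.94 and TGFA by 0.51. EREG changed by -1.82 and did not pass (adjusted p = 0.0950), but did with the first set fitted alone (1.24e-04). EGFR did not pass (0.23, 0.413), and its other probe sets disagreed in a fit over probe sets, from -1.52 (0.00366) to 0.67 (0.0185). TGFA in this comparison lost its call without any one of 4 arrays (control 48 h replicate 2, CdCl 12 h replicates 1 and 2, CdCl 48 h replicate 1; 0.44 to 0.48, adjusted p at most 0.0664), and it was 0.02 with the mean of probe sets. For high Kbr from 24 to 48 h 3 of 8 passed, against 15.0%: HBEGF by 1.94, DUSP5 by 1.50 and DUSP1 by 1.14. For low Kbr 2 of 8 passed, against 4.35%: HBEGF by 1.88 and DUSP5 by 1.27. With the replicate number as a block 1243 rather than 482 genes passed for low Kbr, DUSP1 among them (0.69, adjusted p = 0.0126), and 2668 rather than 1663 for high Kbr. HBEGF for low Kbr lost its call without control 24 h replicate 3 (1.49, adjusted p = 0.0556), and with the set fitted alone both HBEGF (0.137) and DUSP5 (0.0847) lost theirs. With the block both calls for low Kbr stood (adjusted p = 7.76e-04 for HBEGF and 5.75e-04 for DUSP5). EREG passed without replicate 3 of the treated group at 48 h, for high Kbr (2.10, adjusted p = 0.0454) and for low Kbr (2.74, 0.0143). DUSP1 for low Kbr passed without control 24 h replicate 1 (0.76, 0.0441) or control 48 h replicate 3 (0.86, 0.0137). DUSP5 for CdCl passed without CdCl 48 h replicate 3 (0.69, 0.0447).

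The vehicle cultures themselves changed with time. From 12 to 48 h in the first set all 8 members passed, against 45.7% of all genes. EGFR rose by 0.81 and EREG by 1.50, and HBEGF fell by 0.91, TGFA by 0.93, DUSP1 by 0.72, DUSP5 by 0.89, DUSP6 by 0.91 and SPRY4 by 0.71. The EREG call was lost without control 12 h replicate 2 or 3 or control 48 h replicate 1 or 2 (1.38 to 1.52, adjusted p 0.0610 to 0.0868) and without a filter (0.0658), and that of SPRY4 without control 48 h replicate 3 (-0.53, 0.0552). With the mean of probe sets TGFA (-0.26, 0.330) and DUSP1 (-0.13, 0.609) did not pass. From 24 to 48 h in the Kbr set 2 of 8 passed, against 12.2%: HBEGF fell by 1.26 (adjusted p = 0.00540) and DUSP6 rose by 0.45 (0.0202). With the replicate block 4 of 8 passed there, DUSP5 (-0.39, adjusted p = 0.0419) and SPRY4 (0.54, 0.0129) as well, and 2498 rather than 1358 genes. Both calls were lost with the set fitted alone (HBEGF 0.0594, DUSP6 0.0776), without control 24 h replicate 3 (HBEGF -0.87, 0.0920; DUSP6 0.31, 0.214) and without control 48 h replicate 1 (HBEGF -1.06, 0.0523; DUSP6 0.38, 0.114). Without control 48 h replicate 3, DUSP5 (-0.61, 0.0113) and SPRY4 (0.69, 0.0352) also passed.

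The 48 h controls of the sets differed in 6 of 8 members, against 51.0% of all genes. The Kbr control was higher in DUSP5 by 1.23, DUSP6 by 1.07, DUSP1 by 0.88, TGFA by 0.55 and SPRY4 by 0.54, and differed by -1.92 in EREG. The SPRY4 call was lost without replicate 3 of the first set's control (0.36, adjusted p = 0.187) or replicate 1 or 2 of the Kbr control (0.43 and 0.50, 0.133 and 0.0802), after median centring (0.0506) and without a filter (0.0586). HBEGF did not pass (-0.69, 0.0519), but did without Kbr control replicate 3 (-1.01, 0.00837), with a filter at 6 (0.0479), after median centring (-0.75, 0.0336) and after quantile normalization (-0.74, 0.0361). Its second probe set differed by 0.67, in the other direction, and did not pass (0.0709). EGFR did not pass (-0.12, 0.483), and its other probe sets disagreed in a fit over probe sets, from -1.10 (8.84e-08) to 0.61 (0.0238). Set, vehicle and time of the experiment cannot be told apart here, so the compounds of different sets were compared through their own controls.

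At 48 h the effect of Di differed from that of high Kbr in 7 of 8 members, against 43.5% of all genes, and the effect of CdCl in 6 of 8, against 50.1%. The difference between effects in TGFA was 2.11 for Di (adjusted p = 6.52e-11) and 1.46 for CdCl (2.59e-08), between compounds with effects of opposite sign. In EGFR it was 0.95 for Di (2.44e-04) and 0.67 for CdCl (0.00547). For HBEGF it was -1.36 for Di (0.00879) and -1.43 for CdCl (0.00539). The CdCl call was lost with the mean of probe sets (-0.93, 0.0518), and in the second HBEGF probe set neither difference passed (-0.65 for Di, 0.240, and -0.43 for CdCl, 0.432). DUSP1 rose more than with high Kbr by 1.00 after Di (3.58e-04) and by 0.68 after CdCl (0.00934). DUSP6 fell more with Di than with high Kbr (-1.18, 5.45e-06), and for CdCl the difference of -0.27 did not pass (95% interval -0.64 to 0.09). For DUSP5 the difference was 0.97 for Di (0.00130) and -0.60 for CdCl (0.0334), and for SPRY4 it was 0.87 for Di (0.0162) and -0.71 for CdCl (0.0428). With CdCl, each of DUSP5 and SPRY4 lost its call without any one of 7 of the 12 arrays involved (adjusted p up to 0.142 and 0.130) and without a filter. With Di, SPRY4 lost its call without any one of 4 arrays, replicate 3 of the first set's control, Di replicate 1, Kbr control replicate 1 and high Kbr replicate 3 (0.68 to 0.76, adjusted p 0.0501 to 0.0659). EREG passed for CdCl without Kbr control replicate 1 (-2.11, 0.0417) or high Kbr replicate 3 (-2.60, 0.00449), where the full fit gave -1.85 (0.0537). On all arrays EREG also passed with a filter at 6 (0.0495), after median centring (-1.88, 0.0421) and after quantile normalization (-1.87, 0.0488).

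High Kbr differed from low Kbr in 0 of 8 members at 24 h, against 4.39% of all genes, with limma's unadjusted p below 0.05 for 3 of the 8. With the replicate number as a block, 2 passed, TGFA (-0.26, adjusted p = 0.0263) and DUSP6 (-0.37, 0.0482), as did 1171 rather than 487 of all genes. At 48 h 4 of 8 passed, against 23.8%. The high dose was higher in DUSP5 by 0.48 (0.0333) and DUSP1 by 0.44 (0.0332), and differed by -0.50 in EGFR (0.00847) and -0.39 in DUSP6 (0.0251). With the replicate block HBEGF (0.58, 0.0334) and TGFA (-0.19, 0.0497) passed too. With the set fitted alone DUSP1, DUSP5 and DUSP6 lost their calls (0.106, 0.124 and 0.0731), and without any one of the 6 arrays 2 or 3 members passed. EGFR was lost without high Kbr replicate 3 (-0.33, 0.0922) or low Kbr replicate 1 (-0.34, 0.0942), and DUSP1 without high Kbr replicate 2 (0.30, 0.203) or low Kbr replicate 1 (0.34, 0.160). DUSP5 was lost without high Kbr replicate 1 or 2 or low Kbr replicate 2 or 3 (0.40 to 0.47, 0.0819 to 0.134), and DUSP6 without high Kbr replicate 1 or low Kbr replicate 2 or 3 (-0.32 to -0.35, 0.0760 to 0.110) and after median centring (-0.29, 0.0975). EREG passed only without low Kbr replicate 3 (-1.43, 0.0437).

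The other genes of the pathway were taken from 5 lists, described by counts and medians. Of 7 ERBB receptors and other ligands, 4 were measured. ERBB2, the partner receptor of EGFR, fell in 7 of the 8 comparisons (-0.64 to -1.96), with Di at 12 h the exception. EGF itself rose after Di at 48 h (1.66), after high Kbr (0.51 at 24 h and 1.67 at 48 h) and after low Kbr at 48 h (1.36). BTC, the ligand betacellulin, rose after Di at 48 h (1.86) and CdCl at 48 h (0.88) and fell after CdCl at 12 h (-0.72). NRG1, neuregulin for ERBB3 and ERBB4, rose in all 4 groups treated for 48 h, by 0.81 to 1.50. The median of this list at 48 h was 1.24 for Di, 0.46 for CdCl, 0.37 for high Kbr and 0.81 for low Kbr, while the medians over all genes lay between -0.06 and 0.00.

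Of 6 genes for ligand release, 5 were measured. The metalloprotease ADAM9 rose in all 4 groups treated for 48 h (0.61 to 1.37) and after CdCl at 12 h (0.91). ADAM17, the main protease for TGFA and EREG, rose after Di (0.97) and CdCl (0.53) at 48 h. RHBDF1, which carries ADAM17 to the cell surface, fell in 5 comparisons, the most after high Kbr at 48 h (-1.48). ADAM10 fell after CdCl at 48 h (-0.71).

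Genes of the kinase cascade moved both ways. Of 13 measured genes of the RAS to ERK list, 7 passed with CdCl at 12 h (3 higher, 4 lower) and 7 with high Kbr at 48 h (2 higher, 5 lower), where 43.9% and 61.8% of all genes passed. MAP2K1, which encodes MEK1, rose by 0.34 to 0.61 after CdCl at both times and in the other 3 groups treated for 48 h. RPS6KA3, a kinase downstream of ERK, fell at 48 h after high Kbr (-1.72) and low Kbr (-1.05). The median of the list lay between -0.28 and 0.21 over the 8 comparisons.

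Other negative regulators moved both ways, as DUSP5 and DUSP6 did. Of 14 measured, 7 rose and 2 fell with Di at 48 h, 4 rose and 2 fell with CdCl at 48 h, 7 rose and 3 fell with high Kbr at 48 h, and 6 rose and 3 fell with low Kbr at 48 h. Over all genes 43.0%, 42.7%, 61.8% and 47.0% passed in these comparisons, and the 6 of 14 with CdCl lay at that share. SPRY1, a relative of SPRY4, fell in all 4 groups treated for 48 h (-2.16 to -2.62) and after high and low Kbr at 24 h (-1.06 and -0.83). DUSP10, a phosphatase for p38 and JNK, rose after CdCl by 2.89 at 12 h and 3.00 at 48 h, and by 1.29 to 1.96 in the other 3 groups treated for 48 h. PEA15, which holds ERK in the cytoplasm, rose in 7 of 8 comparisons, by 0.38 to 1.75. ERRFI1, an inhibitor that binds EGFR, rose after CdCl at 12 h (0.98) and at 48 h after Di, high and low Kbr (0.51 to 0.88). LRIG1, which promotes loss of EGFR, was the one gene of this list that passed after Di at 12 h (-1.01), and it also fell after CdCl (-0.98 at 12 h and -1.31 at 48 h) and at 48 h after high and low Kbr (-0.84 and -0.69). The medians at 48 h lay between 0.18 and 0.41.

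Of 14 measured genes that ERK is known to induce, 9 rose and 2 fell with Di at 48 h, and 7 rose at 48 h with CdCl, high Kbr and low Kbr alike, with 1, 2 and 2 lower. All genes passed at 43.0% for Di, 42.7% for CdCl, 61.8% for high Kbr and 47.0% for low Kbr, and the 9 of 14 with high Kbr lay near that share. FOSL1, a member of AP-1, rose by 4.68 after Di, 3.35 after CdCl, 3.47 after high Kbr and 2.13 after low Kbr at 48 h. PLAUR, the urokinase receptor, rose after CdCl by 1.20 at 12 h and 2.29 at 48 h. EPHA2 rose in all 4 groups treated for 48 h, by 0.91 to 1.67. EGR1, an early response gene, fell instead at 48 h after Di (-2.25), high Kbr (-2.58) and low Kbr (-0.95), and at 24 h after high and low Kbr (-1.87 and -0.79). After CdCl it did not pass (0.37 at 12 h and 0.24 at 48 h). The median of this list at 48 h was 0.72 for Di, 0.61 for high Kbr and 0.48 for both CdCl and low Kbr.

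**Figure D5:**
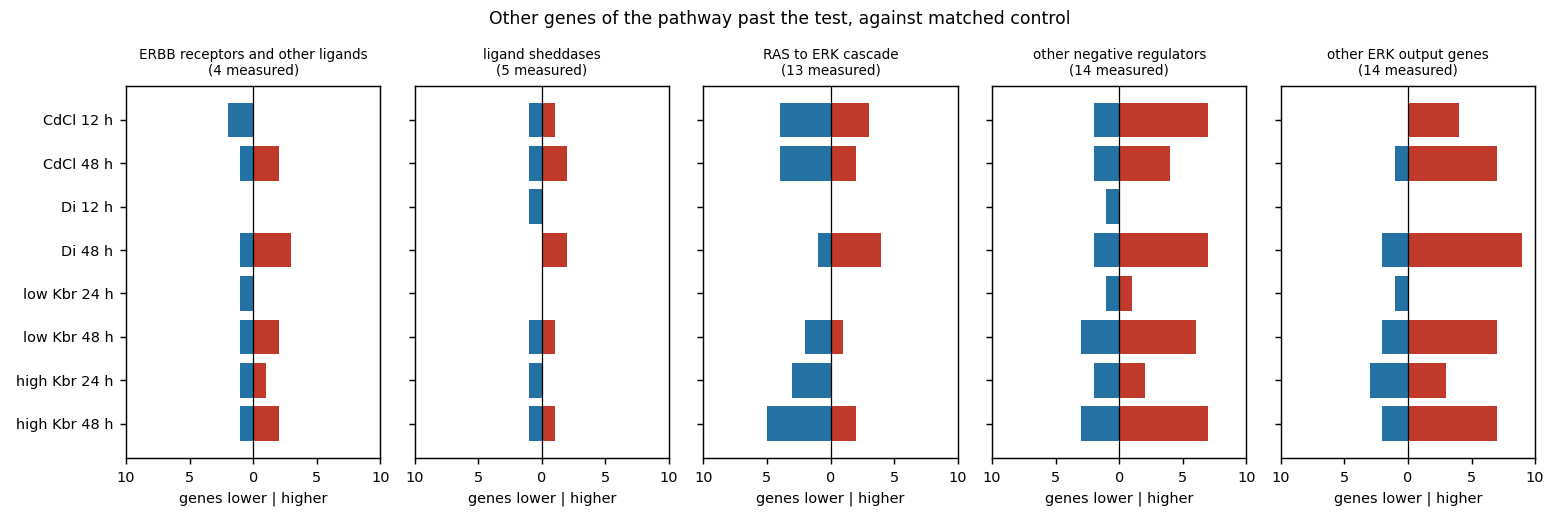
Number of genes past the test in 5 lists of the pathway, lower than control to the left and higher to the right, for 8 comparisons. At 48 h the ERK output list has 7 to 9 of 14 measured genes higher and 1 or 2 lower, where 42.7% to 61.8% of all genes passed. Di at 12 h has at most 1 gene in any list, where 6.27% of all genes passed.

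Among the members, group means followed each other most for HBEGF and DUSP1 (Pearson r = 0.78 over 12 group means, each minus the mean of its set) and for DUSP1 and DUSP5 (r = 0.78). EGFR and DUSP6 ran oppositely (r = -0.72), as did EREG and DUSP6 (r = -0.62) and DUSP5 and DUSP6 (r = -0.61). TGFA followed no other member above r = 0.31. These are descriptions over 12 points that share controls and arrays. The genes outside the group with the most similar pattern over the same 12 points were MTMR2 (r = 0.99) and BCAR3 for DUSP5, ZNF267 (0.95) and ZNF765 for HBEGF, RAB23 (0.95) and ABL2 for DUSP1, BCO2 (0.98) and AIF1L for DUSP6, TBC1D32 (0.98) and DTX3 for EGFR, NFKB2 (0.95) and SLC7A5 for EREG, RUNX2 (0.94) and SEMA3C for TGFA, and SPRED1 (0.91) and HEG1 for SPRY4.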

How the data were processed

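The 36 deposited arrays (3 per group) hold log2 expression values that the authors deposited for each probe set after GCRMA, per the submitters' processing notes. Its version is not given in the sources used here. Background correction leaves a floor, and whether differences of dim genes are compressed was not tested. After Di at 48 h the dim TGFA probe sets rose by 1.14 and 2.29, and the brightest by 1.26. Precision is limited by 3 arrays per group.

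Groups and replicate numbers came from the sample descriptions. Probe sets with 1 gene symbol and a value above 4 on at least 3 of the 36 arrays were kept, and each gene was read from the one with the highest mean (11092 genes). All arrays were fitted with 12 group means in limma 3.58.1 (R 4.3.3, lmFit and eBayes), with Benjamini-Hochberg adjustment over all genes and a threshold of 0.05, for 21 comparisons. The procedure was tested on simulated data. The members and lists were chosen with earlier results of these data known. Named genes were all members, up to 3 of the largest passing genes per list and comparison, with their values in other comparisons, and the 2 genes most similar to each member. Identical numbers paired the arrays of the Kbr set, from the data alone: all 45 same-number pairs of arrays deviated together (r 0.240 to 0.677), and all 18 arrays were closest to their own number. Alternatives were no filter, a filter at 6, median centring, quantile normalization, the mean of probe sets, each set alone, the replicate block, and leaving out each array. RefSeq tables (GRCh38.p14) gave loci and promoters, with a promoter window searched for 8 members. The promoter table had no entry for DUSP5, and the DUSP4 promoter was not used here.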

Additional observations from a re-analysis of the deposited data

Results flagged for a closer look

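The 13 results below were singled out because the difference from control changed between the earlier and the later time by a test of that change itself (limma, adjusted p below 0.05). For Di from 12 to 48 h the change was 3.40 for DUSP5, 1.68 for DUSP1, 1.48 for SPRY4, 1.32 for TGFA, 0.67 for EGFR and -1.71 for DUSP6. With the mean of probe sets the change for EGFR was 0.41 and did not pass (adjusted p = 0.115). For CdCl from 12 to 48 h it was 0.51 for TGFA and -0.94 for DUSP6. With the mean of probe sets the change for TGFA was 0.02 and did not pass (adjusted p = 0.972). For high Kbr from 24 to 48 h it was 1.94 for HBEGF, 1.50 for DUSP5 and 1.14 for DUSP1. For low Kbr from 24 to 48 h it was 1.88 for HBEGF and 1.27 for DUSP5. With the Kbr set fitted alone neither low Kbr change passed (adjusted p = 0.137 and 0.0847), and with the replicate block both did (7.76e-04 and 5.75e-04). From 24 to 48 h the HBEGF mean went from 6.95 to 5.69 in Kbr vehicle. It went from 7.74 to 8.42 in high Kbr and from 7.22 to 7.83 in low Kbr. In the first set the controls themselves moved between 12 and 48 h by 0.71 to 1.50 in size for all 8 members. Groups of 3 arrays were too small to test single arrays as outliers.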

How the results depend on the processing

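No member changed direction in any call under any alternative run. Over the 64 tests with control, the arrays centred on their median lost 1 call, quantile normalization gained 1, no filter lost 2, and the mean of probe sets lost 6 and gained 2. Each set fitted alone lost 4 and gained 3. With a filter at 6 all 56 remaining tests stood and SPRY4 was not tested. Over 384 tests without one array, 18 calls were lost and 1 was gained. Members past the threshold for Di at 12 h were 0, and 1 with the mean of probe sets (DUSP1), the set fitted alone or the replicate block (HBEGF for both). For low Kbr at 24 h they were 2, and 1 with the mean of probe sets or the set alone. For high against low Kbr at 48 h they were 4, with 2 without a filter and 1 with the set alone. For CdCl against Di at 48 h they were 4, and 7 with the set alone. For the change of the CdCl effect they were 2, and 5 with the set alone. For the change of the low Kbr effect they were 2, and 0 with the set alone. For the Kbr control between times they were 2, and 0 with the set alone. For CdCl against Di at 48 h and the change of the CdCl effect, the share of all genes with the set alone is not given. No gain particular to the members is read from those counts.

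With the replicate block, the number of members was 2 rather than 0 for high against low Kbr at 24 h, 4 rather than 2 for the Kbr control between times, and 5 rather than 2 for the change of the CdCl effect. Over all genes 1171 rather than 487, 2498 rather than 1358 and 3783 rather than 2687 passed in these comparisons. In the CdCl and Di set the numbers did not pair the arrays (8 of 45 same-number pairs above r = 0.1, 3 of 18 arrays closest to their own number), and the block there gained HBEGF for Di at 12 h (adjusted p = 0.0328) and SPRY4 for CdCl at 48 h (0.0276). Over the comparisons with control in the Kbr set the block changed no member's call. With numbers blocked within each set, the members past the threshold stayed at 6 for the CdCl and 7 for the Di effect against that of high Kbr. For the 48 h controls of the sets no paired analysis was possible because each set held 1 of the groups compared.

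Without one array each, members past the threshold ranged over 3 to 4 for CdCl at 12 h, 5 to 6 for CdCl at 48 h, 4 to 5 for high Kbr at 24 h, 6 to 7 for high Kbr at 48 h, 1 to 2 for low Kbr at 24 h, 5 to 6 for low Kbr at 48 h, and 2 to 3 for high against low Kbr at 48 h. They ranged over 1 to 3 for the changes of the CdCl and the low Kbr effects and 0 to 4 for the Kbr control between times. Counts over all genes moved by more than 1.5 times mainly in weak comparisons. For Di at 12 h 695 genes passed, 1446 with the set alone, 1662 with the block and 286 to 452 without one of 4 arrays. For low Kbr at 24 h 1687 passed, 933 with the set alone, 2720 with the block, and 824 and 997 without one array. For high against low Kbr at 24 h 487 passed, 108 with the set alone, 1171 with the block and 196 to 311 without one array. For the change of the low Kbr effect 482 passed, 6 with the set alone, 1243 with the block and 110 to 949 without one array. For the change of the high Kbr effect 1663 passed, 870 with the set alone, 2668 with the block and 1054 without control 24 h replicate 3. For the Kbr control between times 1358 passed, 633 with the set alone, 2498 with the block and 387 to 785 without one of 3 arrays. Dim genes such as SPRY4 and both further TGFA probe sets are limited by their signal over background.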
